A study of Mus musculus with 12 samples.

Results

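The 10 genes described here encode the enzymes that remove superoxide and peroxide in mouse skin: the superoxide dismutases Sod1, Sod2 and Sod3, catalase (Cat), and the glutathione peroxidases Gpx1, Gpx2, Gpx3, Gpx4, Gpx7 and Gpx8. They were chosen by symbol and are 10 of the 52636 genes in the count table. All 10 passed the filter on low counts. Skin mRNA was sequenced from C57BL/6 mice 3 months old in 4 groups of 3 libraries, taken after 14 days of continuous application to the skin. WT mice and Cdc42 KO mice received the saline vehicle with hydroxypropyl methylcellulose, and the groups labelled WT+ZnO NPs and KO+ZnO NPs received zinc oxide nanoparticles suspended in it. In KO mice a floxed Cdc42 was deleted by Cre under the keratin 5 promoter, so the deletion is restricted to keratinocytes and the other cells of the skin keep the gene; WT mice, per the study's supplement, lacked Cre and could carry floxed alleles. The study's methods call the 3 libraries of a group biological replicates; the labels tie no library to an animal.

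Superoxide is made by NADPH oxidases, by the respiratory chain and by several other oxidases. Superoxide dismutases turn it into hydrogen peroxide: Sod1 with copper and zinc in the cytosol, Sod2 with manganese in mitochondria, and Sod3 with copper and zinc outside the cell, bound to matrix. Catalase, a haem enzyme of peroxisomes, splits hydrogen peroxide, and glutathione peroxidases reduce it, or lipid peroxides, at the expense of glutathione or other thiols. Gpx1 to Gpx4 carry selenocysteine, while Gpx7 and Gpx8 sit in the endoplasmic reticulum and use cysteine.

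Levels are given as CPM, a gene's counts relative to the library total after TMM scaling. Library totals ran from 21076320 to 28867802 counts. Cdc42, the deleted gene, stood at 606.1 to 628.4 CPM in WT and 415.4 to 464 CPM in KO, but at 310.7 to 350.1 CPM in those whose label is WT+ZnO NPs and 313.5 to 453 CPM in those labelled KO+ZnO NPs. The level under the WT+ZnO NPs label thus goes against that label, and every direction drawn from them below rests on libraries so labelled. Y-linked transcripts, at 214.8 to 244.6 CPM, were found in the 3 WT+ZnO NPs libraries and in replicate 1 of KO and of KO+ZnO NPs, while Xist, at 459.7 to 1033 CPM, marked the remaining 7. The study's methods describe female KO mice, which replicate 1 of KO and of KO+ZnO NPs goes against. Hence sex and label cannot be told apart between the WT and WT+ZnO NPs libraries. Basal and suprabasal keratinocyte markers were present in every library, and the mitochondrial share of counts was 2.418% to 3.199% in vehicle libraries against 3.663% to 5.294% in those labelled ZnO NPs.

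Of the 10 genes, 9 have an entry in the RefSeq promoter windows (GRCm38.p6, 250 bases before to 50 after the start), and Sod3 has none. These windows were searched on both strands for the core of the antioxidant response element, TGACNNNGC, the site read by NRF2, and for the core of the metal response element, TGCACNC or TGCGCNC, the site read by MTF1, the factor that senses zinc. The first core is present in 12.4% of all 32851 windows and the second in 25.7%. Among these genes the first was found in Sod1 alone, at position -56 from the start on the minus strand, and the second in Gpx7 alone, at position -210 on the plus strand. 3 stretches are printed 5′ to 3′ on the strand of the gene, with the matches in capitals: the Sod1 and Gpx7 stretches because they hold the matches, and the Gpx2 stretch, which has neither, because Gpx2 was the member whose fitted level was higher both in KO and in WT+ZnO NPs than in WT. They lie at chr16:90220512-90220753 on the plus strand (upstream of Sod1), chr12:76795555-76795804 on the minus strand (upstream of Gpx2) and chr4:108406906-108406935 on the minus strand (30 bases inside Gpx7 as GENCODE M21 draws the gene). A match is a description of these letters only.
Sod1: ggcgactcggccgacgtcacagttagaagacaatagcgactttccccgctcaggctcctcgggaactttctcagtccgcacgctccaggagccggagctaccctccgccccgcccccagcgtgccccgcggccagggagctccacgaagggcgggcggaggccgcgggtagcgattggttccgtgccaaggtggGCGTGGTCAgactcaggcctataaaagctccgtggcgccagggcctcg
Gpx2: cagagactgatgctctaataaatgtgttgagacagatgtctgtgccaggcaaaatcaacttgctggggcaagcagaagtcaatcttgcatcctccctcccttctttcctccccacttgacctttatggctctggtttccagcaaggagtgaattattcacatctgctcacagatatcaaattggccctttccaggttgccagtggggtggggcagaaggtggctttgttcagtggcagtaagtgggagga
Gpx7: ctattaagtctcTGCGCCCtgagcttgagt

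Sod3, the extracellular dismutase (chromosome 5, 52363791 to 52371418, plus strand), varied most widely of the dismutases. It was read at 211.6, 290.8 and 245.6 CPM in the WT libraries, 106, 112 and 65.51 CPM in KO, 27.52, 37.14 and 21.64 CPM in WT+ZnO NPs, and 56.8, 36.53 and 38.32 CPM in those labelled KO+ZnO NPs. All WT libraries lay above all KO libraries, and all KO libraries lay above every library labelled ZnO NPs, while the groups given nanoparticles overlapped. Sod3 fell in all 3 of these comparisons: the log2 fold change was -1.40 in KO against WT (SE 0.26, edgeR adjusted p = 0.0126), -3.12 in WT+ZnO NPs against WT (SE 0.28, edgeR adjusted p = 3.74e-05) and -1.11 in KO+ZnO NPs against KO (SE 0.26, edgeR adjusted p = 0.0229). The fall with nanoparticles was larger in the WT than in the KO libraries by 2.01 on the log2 scale (interaction, SE 0.37, edgeR adjusted p = 0.0135), a call kept in 19 of 19 alternatives. Between KO+ZnO NPs and WT+ZnO NPs the log2 difference was 0.61 (95% interval 0.10 to 1.13), which did not pass the test (edgeR adjusted p = 0.183).

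The decline of Sod3 moved with a decline in macrophage transcripts (Csf1r, Adgre1, Cd68, Mrc1, Lyz2 and Cd163), and in bulk skin fewer cells of a type and less RNA per cell cannot be told apart. The summed level of these 6 markers was 3118 to 4051 CPM in WT, 1763 to 3178 CPM in KO, 183.1 to 397.9 CPM in WT+ZnO NPs and 334.7 to 758.8 CPM in KO+ZnO NPs. All 6 were called lower in both comparisons of ZnO NPs with vehicle and none in KO against WT, and none was at 0 in the table. The sum of neutrophil markers was 235.6 to 291.7 CPM in WT and 136 to 652.8 CPM in KO. It was 5.8 to 74.06 CPM in WT+ZnO NPs and 18.81 to 68.08 CPM in KO+ZnO NPs. Endothelial markers summed to 470.7 to 501.5 CPM in WT and 282.5 to 343.6 CPM in KO. In WT+ZnO NPs they stood at 85.68 to 201.5 CPM and in KO+ZnO NPs at 192.7 to 618.2 CPM. Within KO, replicate 1 held the fewest macrophage transcripts (1763 CPM) but replicate 3 the least Sod3 (65.51 CPM). The part of these markers in the Sod3 result was not tested. The 2 genes whose log2 level followed Sod3 most closely over the 12 libraries, among 11269 searched, were Cadm3 (Pearson r 0.989), an adhesion molecule, and Siglec1 (r 0.983), a sialic acid receptor of macrophages. The KO against WT call was lost without WT replicate 2 (edgeR adjusted p = 0.0607). The KO+ZnO NPs against KO call was lost without KO replicate 1 (0.0552), KO replicate 2 (0.0942), KO+ZnO NPs replicate 2 (0.0742) or KO+ZnO NPs replicate 3 (0.0633), and where only these 2 groups were fitted (0.0663), all edgeR adjusted p-values. Among the libraries holding Xist, both calls remained, at -1.49 (edgeR adjusted p = 0.0375) and -1.24 (edgeR adjusted p = 0.0348) on the log2 scale.

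Sod1, the cytosolic dismutase (chromosome 16, 90220754 to 90226329, plus strand), moved less. Its level was 161.8, 180.6 and 174.4 CPM in WT, 103.2, 102.6 and 124.4 CPM in KO, 141.5, 125 and 134.8 CPM in WT+ZnO NPs, and 135.6, 135.1 and 223 CPM in KO+ZnO NPs. The WT libraries lay above those of KO and of WT+ZnO NPs, and the KO+ZnO NPs libraries lay above those of KO. None of these differences passed the edgeR test: the log2 fold change was -0.65 in KO against WT (SE 0.19, edgeR adjusted p = 0.0558), -0.36 in WT+ZnO NPs against WT (SE 0.18, edgeR adjusted p = 0.132) and 0.58 in KO+ZnO NPs against KO (SE 0.19, edgeR adjusted p = 0.0583). DESeq2 called Sod1 in KO against WT (adjusted p = 0.0103) and in KO+ZnO NPs against KO (adjusted p = 0.0268), and edgeR called the latter without KO+ZnO NPs replicate 1 (adjusted p = 0.037) or 2 (adjusted p = 0.0461), KO against WT without KO+ZnO NPs replicate 2 (adjusted p = 0.0427) or 3 (adjusted p = 0.0082), and WT+ZnO NPs against WT without KO+ZnO NPs replicate 3 (adjusted p = 0.0348). With only the groups compared, edgeR called KO against WT (adjusted p = 0.0172) and WT+ZnO NPs against WT (adjusted p = 0.0484). The difference between the changes with nanoparticles in KO and in WT, 0.95 on the log2 scale, did pass (interaction, SE 0.26, edgeR adjusted p = 0.0495). That call was kept in 7 of 19 alternatives and was lost without any 1 of the 9 libraries of WT, WT+ZnO NPs or KO, with edgeR adjusted p-values of 0.0658 to 0.114. Sod2, the mitochondrial dismutase (chromosome 17, 13006846 to 13040063, plus strand), lay between 91.14 and 150.2 CPM in all 12 libraries with overlapping groups in every comparison. Its log2 fold changes ran from -0.27 (95% interval -0.59 to 0.04) in KO against WT to 0.07 (95% interval -0.24 to 0.39) in KO+ZnO NPs against KO, and it was called in no comparison and under no alternative.

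Per kilobase of the principal transcript, a scale on which genes can be compared, the dismutase messages of the WT libraries averaged 268.8 CPM per kb for Sod1, 66.71 for Sod3 and 21 for Sod2. Sod3 made up 17.3% to 20.2% of the summed dismutase level on this scale in WT, 7.71% to 14.4% in KO, 2.47% to 4.48% in WT+ZnO NPs and 2.7% to 6.23% in KO+ZnO NPs. No KO library reached the WT range, and no library labelled ZnO NPs reached the KO range. The order of Sod1 and Sod3 depends on which length is used: over all annotated exons, which for Sod1 span 3970 bases against 641 in its principal transcript, WT Sod3 stood at 66.71 and Sod1 at 43.39 CPM per kb. On that length Sod3 made up 52.5% to 56.3% of the summed dismutase level in WT and 30.2% to 44.8% in KO. It made up 11.5% to 19.4% in WT+ZnO NPs and 13% to 25.6% in KO+ZnO NPs. No exon of the 3 dismutases overlaps another gene, but 21.04% of the 50-base stretches of Sod2 and 3.42% of those of Sod1 also occur in other genes, so that part of their counts depends on how shared reads were assigned.

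**Figure D1:**
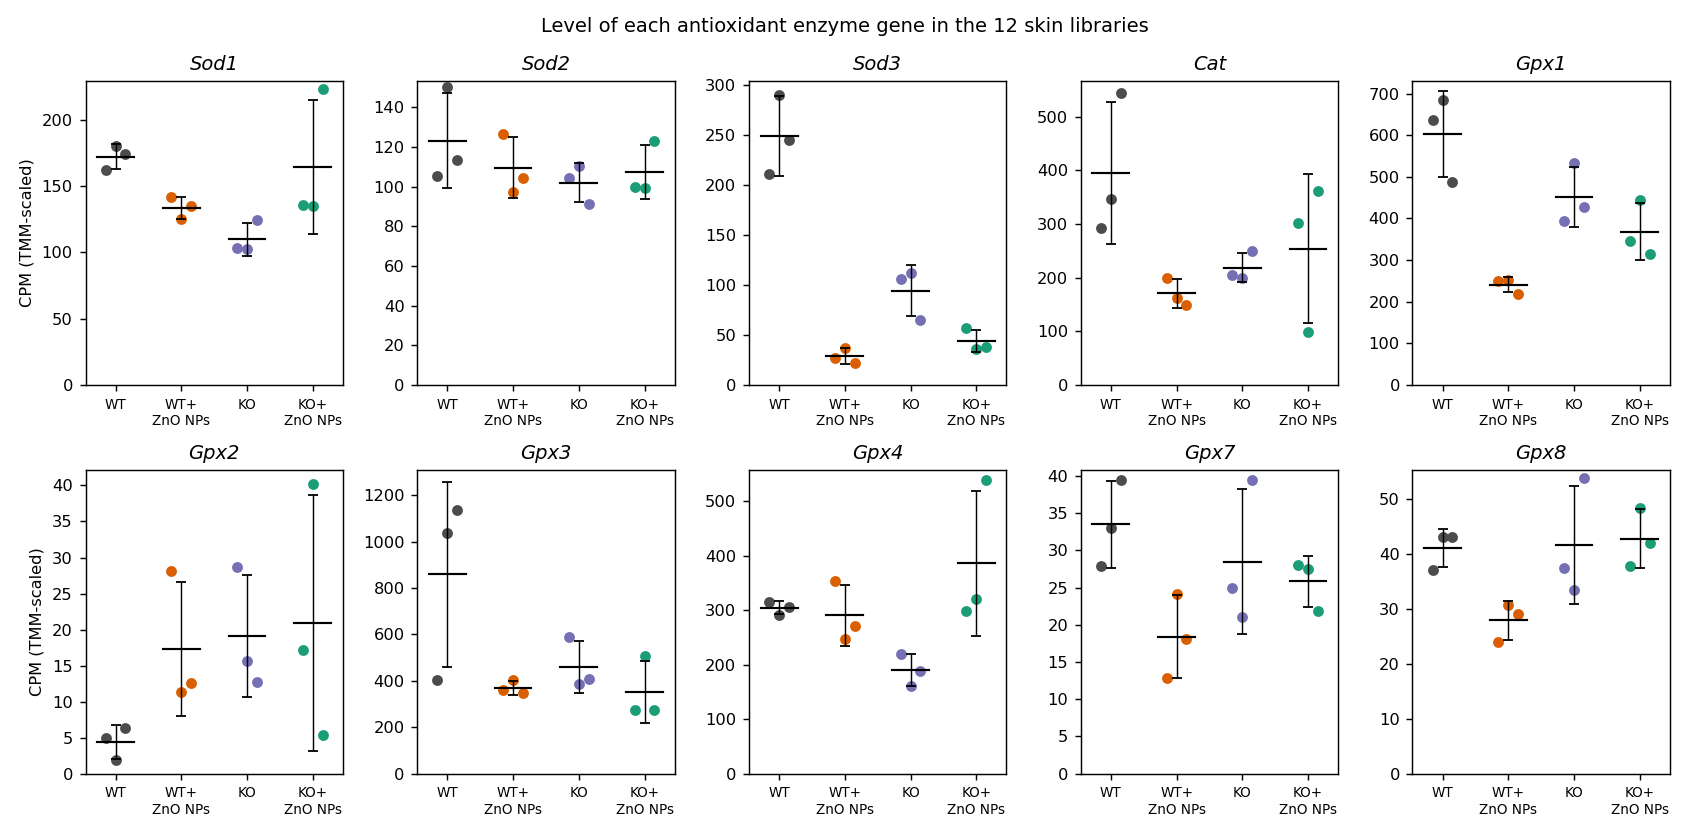
Level of each of the 10 genes as TMM-scaled CPM on a linear axis from 0. Points are libraries, bars the mean and SD of the 3 libraries of a group. The Sod3 panel shows WT at 211.6 to 290.8 CPM, KO at 65.51 to 112 CPM and both groups labelled ZnO NPs at 21.64 to 56.8 CPM, while Sod2 stays within 91.14 to 150.2 CPM throughout.

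Catalase (chromosome 2, 103453849 to 103485160, minus strand) was lower in WT+ZnO NPs than in WT and varied most among the KO+ZnO NPs libraries. It was read at 292.8, 346.6 and 544.2 CPM in WT, 199.9, 163.1 and 149 CPM in WT+ZnO NPs, 205.2, 200.3 and 249.2 CPM in KO, and 302.2, 98.16 and 361.9 CPM in KO+ZnO NPs. The WT libraries lay above those of KO and of WT+ZnO NPs, and the KO+ZnO NPs libraries overlapped every other group. The fall in WT+ZnO NPs against WT passed the test (log2 fold change -1.21, SE 0.40, edgeR adjusted p = 0.0312), whereas KO against WT (-0.85, SE 0.40, edgeR adjusted p = 0.202) and KO+ZnO NPs against KO (0.22, SE 0.39, edgeR adjusted p = 0.731) did not. The interaction was 1.43 (SE 0.56, edgeR adjusted p = 0.129). Without KO+ZnO NPs replicate 2, the library at 98.16 CPM, edgeR called the interaction (1.79, adjusted p = 0.0165) and KO against WT (-0.84, adjusted p = 0.0437).

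Adipocyte transcripts were also lower in WT+ZnO NPs than in WT. The summed level of 8 adipocyte markers was 6453 to 8894 CPM in WT and 1190 to 2543 CPM in WT+ZnO NPs, and in the KO+ZnO NPs libraries it was 6562, 1171 and 6846 CPM, with replicate 2 low in both measures. Within WT+ZnO NPs and KO the measures did not share an order: WT+ZnO NPs replicate 1 held the fewest adipocyte transcripts of its group (1190 CPM) and the most Cat, and the KO libraries held 5735, 2982 and 4822 CPM. Of the 8 markers, 5 were called lower in WT+ZnO NPs against WT and none in either direction in KO against WT or in KO+ZnO NPs against KO. Their part in the catalase values was not tested. The closest followers of Cat over the 12 libraries were Pon3, a lactonase (r 0.969), and Car3, a carbonic anhydrase abundant in fat and muscle (r 0.96).

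Gpx1, the selenoenzyme of cytosol and mitochondria (chromosome 9, 108338903 to 108340343, plus strand), was read at 637.6, 683.8 and 487 CPM in WT, 250.1, 253.3 and 219.5 CPM in WT+ZnO NPs, 394.7, 532.2 and 428.1 CPM in KO, and 346.3, 445.5 and 313.5 CPM in KO+ZnO NPs. Every library labelled WT+ZnO NPs lay below every other library. Gpx1 fell by 1.32 on the log2 scale in WT+ZnO NPs against WT (SE 0.19, edgeR adjusted p = 0.00041), a call kept in 20 of 20 alternatives. In KO+ZnO NPs against KO it changed by -0.29 (SE 0.19, edgeR adjusted p = 0.301) with overlapping groups, and in KO against WT by -0.42 (SE 0.19, edgeR adjusted p = 0.188). The interaction of 1.03 passed (SE 0.27, edgeR adjusted p = 0.0395) but was kept in 8 of 19 alternatives. It was lost without WT replicate 1 or 2, any replicate of WT+ZnO NPs, KO replicate 1 or 3, or KO+ZnO NPs replicate 1 or 2, with edgeR adjusted p-values of 0.0501 to 0.102. Efhd2 (r 0.991) and Ostf1 (r 0.989) followed it most closely.

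Gpx3, the glutathione peroxidase secreted into plasma and extracellular fluid (chromosome 11, 54902453 to 54910377, plus strand), had the widest spread among WT libraries of the more abundant peroxidases. It stood at 401.8, 1036 and 1138 CPM in WT, 360.6, 403.5 and 346.6 CPM in WT+ZnO NPs, 589, 386.3 and 406.8 CPM in KO, and 275.9, 506.3 and 275.8 CPM in KO+ZnO NPs. WT replicate 1 lay among the libraries of the other groups, so no comparison with WT was free of overlap. The log2 fold change in WT+ZnO NPs against WT was -1.21 (SE 0.37, edgeR adjusted p = 0.0231), and in KO against WT it was -0.90 (SE 0.37, edgeR adjusted p = 0.154). Without WT replicate 1 edgeR called the latter (-1.24, adjusted p = 0.045). Cbr2, a carbonyl reductase (r 0.937), and Lamb2, a laminin chain (r 0.916), followed it most closely.

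Gpx4, the enzyme that reduces lipid hydroperoxides in membranes and thereby holds back ferroptosis (chromosome 10, 80047166 to 80056439, plus strand), rose with nanoparticles in the KO libraries. Its level was 315.8, 291.6 and 306 CPM in WT, 353.5, 247 and 271.7 CPM in WT+ZnO NPs, 220.2, 161.1 and 188.2 CPM in KO, and 299, 319.9 and 539 CPM in KO+ZnO NPs. The KO libraries lay below those of all 3 other groups. It was 2.03-fold higher in KO+ZnO NPs against KO (log2 fold change 1.02, SE 0.23, edgeR adjusted p = 0.0197), while in WT+ZnO NPs against WT the log2 fold change was -0.07 (95% interval -0.52 to 0.38, edgeR adjusted p = 0.831). The difference between these changes, 1.09, missed the threshold (interaction, SE 0.33, edgeR adjusted p = 0.0621), as did KO against WT at -0.68 (SE 0.23, edgeR adjusted p = 0.0925). The interaction was called by DESeq2 (1.08, adjusted p = 0.0143) and by edgeR without KO+ZnO NPs replicate 1 (1.25, adjusted p = 0.0445).

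Sebaceous gland transcripts were also lowest in KO. Their summed level over 8 markers was 1484 to 1604 CPM in WT, 504.2 to 560.2 CPM in KO, 1782 to 3758 CPM in WT+ZnO NPs, and 1162, 908.4 and 3635 CPM in KO+ZnO NPs, whose replicate 3 was also the library with the top Gpx4 value. Of the 8, 4 were called higher in KO+ZnO NPs against KO, and 3 higher and 1 lower in WT+ZnO NPs against WT, where Gpx4 was not called. The summed level of 7 skeletal muscle markers was 1030 to 3650 CPM in KO and 2280, 9859 and 12870 CPM in KO+ZnO NPs, with 1 of the 7 called higher. Their part in the Gpx4 result was not tested. The Gpx4 call was lost without KO replicate 2 (edgeR adjusted p = 0.0786) or KO replicate 3 (edgeR adjusted p = 0.0632) and where only the groups KO and KO+ZnO NPs were fitted (edgeR adjusted p = 0.0792). It was kept among the libraries holding Xist (log2 fold change 1.31, edgeR adjusted p = 0.0263). Of the 50-base stretches of Gpx4, 34.7% occur elsewhere, nearly all of them in the pseudogene Gpx4-ps2, which was itself counted at 25.55 to 78.56 CPM and had the highest correlation with Gpx4 (r 0.98), so reads of the pair may have been split between them. The next closest follower was Ndufa9, a subunit of respiratory complex I (r 0.962).

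**Figure D2:**
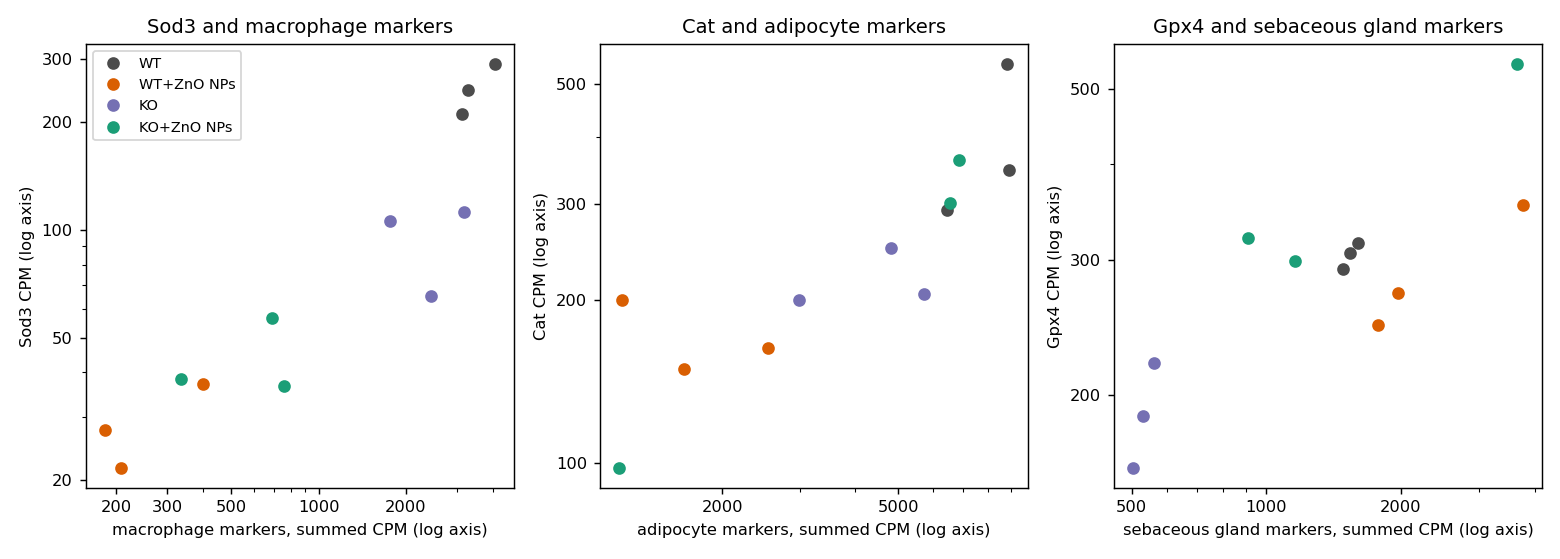
Sod3 against 6 macrophage markers, Cat against 8 adipocyte markers and Gpx4 against 8 sebaceous gland markers, each point a library, with the gene in CPM and the markers in summed CPM on log axes. Libraries with few macrophage transcripts (183.1 to 758.8 CPM) are those with Sod3 at 21.64 to 56.8 CPM, the KO+ZnO NPs library lowest in catalase (98.16 CPM) is lowest in adipocyte transcripts (1171 CPM), and the KO libraries are lowest in sebaceous transcripts (504.2 to 560.2 CPM) and in Gpx4.

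Gpx2, the epithelial glutathione peroxidase best known from the gut (chromosome 12, 76792333 to 76795554, minus strand), was the scarcest member in WT skin per kilobase (4.133 CPM per kb). It was read at 4.994, 1.86 and 6.375 CPM in WT (53 to 150 counts), 28.08, 11.28 and 12.58 CPM in WT+ZnO NPs, 28.71, 15.71 and 12.77 CPM in KO, and 17.14, 40.26 and 5.4 CPM in KO+ZnO NPs. WT libraries lay below those of KO and of WT+ZnO NPs. The rise in WT+ZnO NPs against WT passed the test (3.94-fold, log2 fold change 1.98, SE 0.70, edgeR adjusted p = 0.0416), while the difference in KO against WT did not (4.33-fold, log2 fold change 2.11, SE 0.70, edgeR adjusted p = 0.0881). In KO+ZnO NPs against KO the log2 fold change was 0.13 (95% interval -1.18 to 1.44). Transcripts of the growing hair follicle were also higher in the other groups than in WT. The summed level of 6 anagen markers was 1.369 to 4.42 CPM in WT and 830 to 4179 CPM in WT+ZnO NPs. It was 9.039 to 7196 CPM in KO and 174.1 to 5476 CPM in KO+ZnO NPs. All 6 were called higher in both comparisons with WT. Within WT the measures shared an order, but within each other group they did not. WT+ZnO NPs replicate 1 held the fewest anagen transcripts of its group (830 CPM) and the most Gpx2 (28.08 CPM). KO replicate 2, at 9.039 CPM of anagen markers, held Gpx2 at 15.71 CPM. The part of the anagen markers in the Gpx2 values was not tested. Shf (r 0.941) and Hr, the hairless corepressor of the follicle (r 0.928), followed Gpx2 most closely.

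Gpx7 (chromosome 4, 108400390 to 108406961, minus strand) and Gpx8 (chromosome 13, 113042753 to 113046410, minus strand), the peroxidases of the endoplasmic reticulum, moved together. Gpx7 stood at 27.87, 33.06 and 39.48 CPM in WT, 12.92, 24.08 and 18.16 CPM in WT+ZnO NPs, 24.92, 21.01 and 39.49 CPM in KO, and 28.09, 27.56 and 21.9 CPM in KO+ZnO NPs. Gpx8 stood at 37.1, 43.14 and 43.14 CPM in WT, 23.96, 30.7 and 29.11 CPM in WT+ZnO NPs, 37.47, 33.54 and 53.85 CPM in KO, and 37.78, 48.43 and 42.07 CPM in KO+ZnO NPs. For both, the WT+ZnO NPs libraries lay below those of WT. Gpx7 fell by 0.86 on the log2 scale (SE 0.27, edgeR adjusted p = 0.0257) and Gpx8 had a log2 fold change of -0.56 (SE 0.18, edgeR adjusted p = 0.0303) in this comparison, and neither passed in another. Over the 12 libraries their log2 levels had a Pearson r of 0.858, and of 0.831 with the group means removed. Nid1 (r 0.942) and Itih5 (r 0.941), both genes of extracellular matrix, followed Gpx7 most closely, and Csrp2 (r 0.91) and Pdia5 (r 0.9), the latter a protein disulfide isomerase, followed Gpx8.

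Other pairs of members behaved differently once group means were removed. Sod3 and Gpx1 had an r of 0.884 over the 12 libraries but 0.172 within groups, whereas Sod1 and Gpx4 kept an r of 0.841 and 0.782. Sod1 and Gpx2 ran against each other, at -0.687 and -0.668. These values describe libraries that share groups, tissue makeup and scaling.

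On the scale per kilobase of principal transcript, the mean levels in WT ran from Gpx1 (562.3 CPM per kb) through Gpx3 (538.7), Gpx4 (317.5), Sod1 (268.8), Cat (151), Sod3 (66.71), Gpx8 (39.47), Gpx7 (25.97) and Sod2 (21) to Gpx2 (4.133). Gpx3 overlapped Gpx1, Gpx4 and Sod1 between libraries, and Gpx7 overlapped Sod2. The other neighbours in this order did not overlap. Over the length of all annotated exons Gpx3 (473.6 CPM per kb) came before Gpx1 (418.3). In WT+ZnO NPs the mean of Gpx4 (303.2 CPM per kb) exceeded that of Gpx1 (224.8) with no overlap between libraries, and in KO+ZnO NPs (402.5 against 343.7) with overlap. Over all annotated exons the means were 168.6 against 167.2 in WT+ZnO NPs, and in KO+ZnO NPs the order turned (223.9 against 255.7). Gpx5 and Gpx6, the remaining glutathione peroxidase genes of the mouse, had 0 counts in all 12 libraries.

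**Figure D3:**
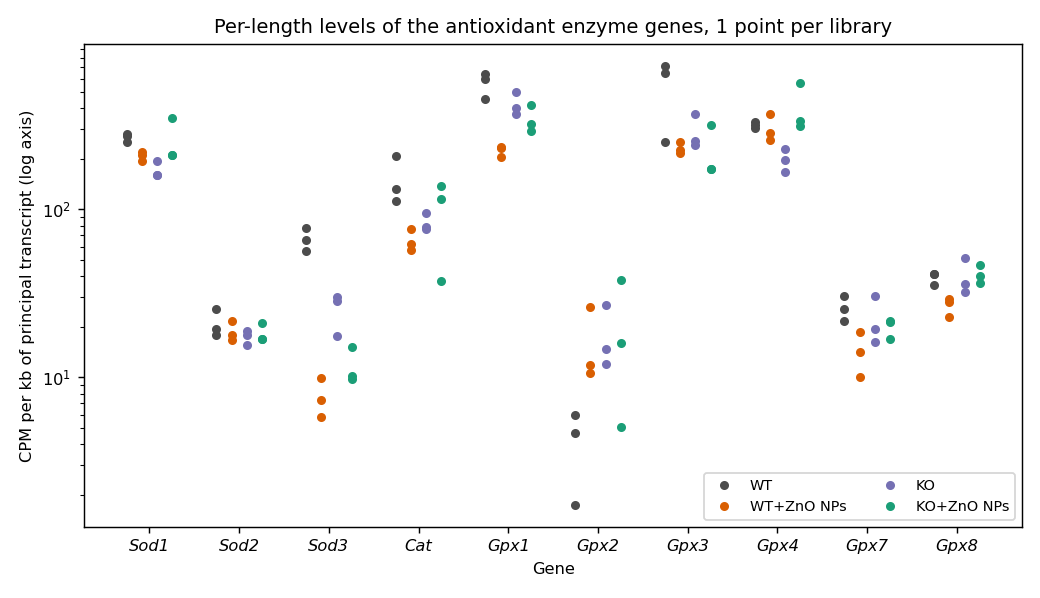
Level of each gene in CPM per kb of its principal transcript, 1 point per library, on a log axis. Gpx1, Gpx3, Gpx4 and Sod1 lie highest in WT (means of 268.8 to 562.3 CPM per kb), Gpx2 lies lowest in WT (4.133), and Sod3 drops from a WT mean of 66.71 to 7.696 in WT+ZnO NPs.

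The first comparison asked how these enzymes differed between KO and WT skin given vehicle. These groups differ in more than Cdc42. KO replicate 1 held Y-linked transcripts while all WT libraries held Xist, and all 6 anagen markers were called higher in KO. The part of these differences in the members' values was not tested. In KO against WT, 1 of the 10 members was called, Sod3, lower, against 8.18% of the 18822 genes tested. The members' median log2 fold change was -0.53, beside 0.01 over all genes. In 1 member the KO libraries lay above WT and in 4 below, while over all genes 38.5% did not overlap. DESeq2 called 4 members (Sod3 and Sod1, Gpx4 lower, Gpx2 higher), and so did edgeR on only these 2 groups, with 3082 and 2794 genes called in all, against 1540 in the fit of all 12 libraries. Without WT replicate 2 none was called, without WT replicate 1, 2 were called, without KO+ZnO NPs replicate 2, 3 were called, and without KO+ZnO NPs replicate 3, 4 were called; the count over all genes moved too, from 377 without WT replicate 2 to 2060 without KO+ZnO NPs replicate 3.

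The second asked what nanoparticles changed in skin labelled WT. In WT+ZnO NPs against WT, 7 of the 10 members were called, against 43% of all genes, 6 of them lower (Sod3, Cat, Gpx1, Gpx3, Gpx7 and Gpx8) and Gpx2 higher. By direction, 22.1% of all genes were called lower and 20.8% higher. The median log2 fold change was -0.71, beside 0.06 over all genes, and 7 members did not overlap between groups, against 59.4% of all genes. Leaving out WT replicate 2 or 3, or WT+ZnO NPs replicate 1 or 3, left 2 members called, Sod3 and Gpx1. Cat was also lost without WT+ZnO NPs replicate 2 (edgeR adjusted p = 0.0781), and Gpx2 without WT replicate 1 (0.0868), KO replicate 3 (0.051) or KO+ZnO NPs replicate 1 (0.0505), and Gpx8 with scaling by library totals (0.0753), all edgeR adjusted p-values. With a term for Y-linked transcripts, estimated from the KO and KO+ZnO NPs libraries since WT and WT+ZnO NPs each hold only 1 sex, 2 members stayed called, Sod3 and Gpx1, and 3910 genes in all. The log2 fold changes of the calls lost under that term were -1.35 for Cat, -1.29 for Gpx3, -0.82 for Gpx7, -0.32 for Gpx8 and 1.60 for Gpx2. Endothelial markers (4 of 4) and suprabasal keratinocyte markers (4 of 5) were also called lower in these libraries and melanocyte markers (4 of 4) higher, and their part in the members' values was not tested.

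In KO+ZnO NPs against KO, the comparison of nanoparticles with vehicle in skin with the deletion, 2 of the 10 members were called, against 14.7% of all genes: Sod3 lower and Gpx4 higher. The median log2 fold change was 0.06 for the members and 0.01 for all genes. In 2 members the KO+ZnO NPs libraries lay above KO and in 1 below, while 34.7% of all genes did not overlap. The 2 comparisons of nanoparticles with vehicle share no libraries, but each shares its vehicle group with KO against WT.

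Between the 2 groups given nanoparticles, KO+ZnO NPs against WT+ZnO NPs, edgeR called 0 of the 10 members, against 3.28% of all genes, with 3 members at an unadjusted p under 0.05, beside 4667 of the 18822 genes. These were Sod3, Gpx1 (log2 fold change 0.61, SE 0.19, edgeR adjusted p = 0.0853) and Gpx8 (log2 fold change 0.61, SE 0.18, edgeR adjusted p = 0.0803). The KO+ZnO NPs libraries lay above those of WT+ZnO NPs for Gpx1 and Gpx8, while 23.7% of all genes did not overlap. DESeq2 called 2 members, Gpx1 and Gpx8, and 2421 genes in all, against 618 with edgeR. The median log2 fold change was 0.45 for the members and 0.04 for all genes.

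The interaction asked whether the change with nanoparticles differed by genotype label. It was called for 3 of the 10 members, Sod1, Sod3 and Gpx1, all positive, against 8.68% of all genes. The members' median was 0.89, beside 0.02 over all genes, and 9 of the 10 values were positive. With the Y-linked term 1 member stayed called, Sod3, and Sod1 (0.67 on the log2 scale, edgeR adjusted p = 0.314) and Gpx1 (0.83, edgeR adjusted p = 0.236) did not. Since the interaction contains both vehicle groups and both groups given nanoparticles, it is no separate evidence beside the comparisons above.

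**Figure D4:**
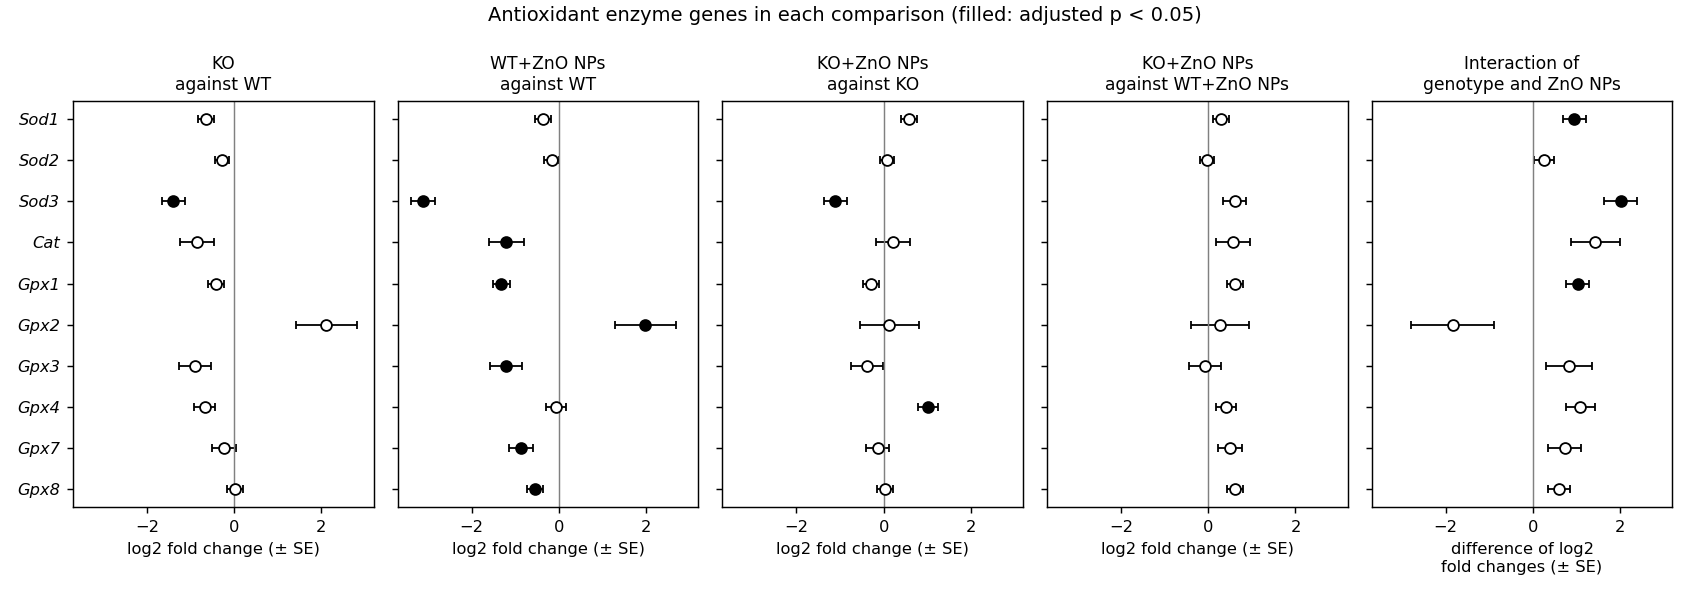
Log2 fold change with its SE for the 10 genes in each of the 4 comparisons, and the difference of log2 fold changes for the interaction. Filled points passed an edgeR adjusted p of 0.05. Sod3 is filled in 4 of the 5 panels, at -1.40, -3.12 and -1.11 and at 2.01 in the interaction, Gpx2 lies to the right against WT, and Sod2 lies near 0 throughout.

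The enzymes act within a larger system, so 96 partner genes in 7 lists were counted, of which 91 were tested. In KO against WT 2 partners were called higher and 6 lower, a share close to the 8.18% of all genes called. Slc7a11, which imports cystine for glutathione synthesis, rose 5.24-fold (6.738 ± 2.681 CPM in WT, SD, n = 3, against 35.4 ± 17.39 CPM in KO, edgeR adjusted p = 0.0214). Ggt1, which recycles extracellular glutathione, was near the floor of counting in WT, with 6, 1 and 6 counts against 342, 34 and 175 in KO (edgeR adjusted p = 0.0218). The anagen markers ordered the KO libraries alike, at 7196, 9.039 and 2169 CPM, and their part in the Ggt1 counts was not tested. G6pdx, the entry enzyme of NADPH supply through the pentose phosphate pathway, fell by 0.86 on the log2 scale (edgeR adjusted p = 0.0233). Prdx3, the mitochondrial peroxiredoxin, fell by 0.79 (edgeR adjusted p = 0.0257) and Sesn1, a sestrin, had a log2 fold change of -0.74 (edgeR adjusted p = 0.0241).

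In WT+ZnO NPs against WT 13 partners were called higher and 32 lower, beside 20.8% of all genes called higher and 22.1% lower, so the total is near the 43% of all genes. Genes that make superoxide and peroxide were mostly lower: 13 of the 17 tested were lower and none higher, with a median log2 fold change of -2.08. Cybb, the catalytic subunit of the phagocyte NADPH oxidase, fell from 161.6 ± 50.5 to 9.647 ± 4.58 CPM (SD, n = 3 each; log2 fold change -4.07, SE 0.51, edgeR adjusted p = 0.000189). Rac2, its small GTPase, fell by 3.47 on the log2 scale (edgeR adjusted p = 5.08e-05), and Ncf1, its cytosolic organiser, had a log2 fold change of -3.23 (edgeR adjusted p = 6.02e-05). These are genes of phagocytes, and the macrophage markers given above fell in the same libraries; whether the change is one of cell number was not tested. Of the peroxiredoxin and thioredoxin list, 8 of 16 were lower and Sesn3 higher. Of the glutathione supply list, 4 of 17 were higher and 4 lower, near the shares over all genes in each direction: Gclc, the rate-limiting enzyme of glutathione synthesis, rose 2.85-fold (36.79 ± 0.6192 CPM in WT against 104.8 ± 16.93 CPM, SD, n = 3 each, edgeR adjusted p = 0.00116), together with Gclm, Gss and Ggt1 (6, 1 and 6 counts in WT against 367, 718 and 855, edgeR adjusted p = 0.00113). Alad, an enzyme of haem synthesis, rose 2.58-fold (edgeR adjusted p = 0.012). In the selenium list 5 of 12 were higher and 2 lower, the latter Selenop, the selenium carrier of plasma, and Scly.

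In KO+ZnO NPs against KO 8 partners were called higher and 15 lower, beside 6.57% and 8.09% of all genes, among them 9 of the 17 superoxide and peroxide sources, with a median of -1.01. Cybb fell by 2.49 on the log2 scale (edgeR adjusted p = 0.0114) and Rac2 had a log2 fold change of -2.29 (edgeR adjusted p = 0.00556). All 6 macrophage markers were also called lower in this comparison, and whether the change is one of cell number was not tested. Slc7a11 fell by 2.24 (edgeR adjusted p = 0.0201), from 35.4 ± 17.39 CPM to 7.488 ± 4.114 CPM (SD, n = 3 each). Glrx5, a mitochondrial glutaredoxin of iron-sulfur cluster assembly, rose 2.05-fold (edgeR adjusted p = 0.0112), Sesn1 rose 1.73-fold (edgeR adjusted p = 0.0152) and Pex6, which recycles the import receptor of peroxisomes, rose 1.69-fold (edgeR adjusted p = 0.0414). Between the groups given nanoparticles 4 partners were called, all higher in KO+ZnO NPs, beside 3.28% of all genes called. None was called by edgeR on only these groups, where 0 genes were called against 618 in the fit of all 12 libraries. The Y-linked term left 1 gene called, as did leaving out WT+ZnO NPs replicate 3. Txnip, the inhibitor of thioredoxin, was 3.30-fold higher (1011 ± 471.7 against 306.4 ± 42.07 CPM, SD, n = 3 each, edgeR adjusted p = 0.0292). Maoa, a mitochondrial oxidase that yields hydrogen peroxide, was 2.01-fold higher (edgeR adjusted p = 0.0277) and Txnrd3, a thioredoxin reductase, 1.75-fold higher (edgeR adjusted p = 0.0454), and the fourth was Sesn1.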

How the data were processed

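Gene counts for 12 skin libraries were deposited by the authors as raw whole-number counts per gene. Per the labels' processing notes reads were aligned with HISAT2 2.0.5 to mm10, while the study's methods name STAR and HTSeq; labels and methods also differ on library kit and sequencer, and the annotation release and strand setting are not given in the sources used here. Of 52636 gene rows, 52403 matched GENCODE M21 (GRCm38), which gave symbols, positions and lengths; promoter windows are from RefSeq GRCm38.p6. All 12 columns were mapped to samples by title, with 0 unmapped.

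Counts were fitted with edgeR 4.0.16 (R 4.3.3) by quasi-likelihood, TMM scaling and filterByExpr, 1 coefficient per group over all 12 libraries, leaving 18822 genes (common dispersion 0.109); p-values were Benjamini-Hochberg adjusted over these genes and called under 0.05. SEs were derived from the F statistic. The script was tested on simulated data. Correlations used log2 CPM with a prior count of 2. Alternatives were DESeq2 1.42.0, RLE or library-size scaling, no or a stricter filter (10 counts in every library), only the groups compared, the replicate number as a block, a Y-linked term, only libraries holding Xist, and leaving out each library. A library was taken to hold Y-linked transcripts above 10 CPM. Named partners are, per comparison, up to 3 called genes with the largest rise and 3 with the largest fall at a mean of at least 10 CPM; Sesn3, Gclm, Gss, Selenop and Scly were named after their values were seen. Members, partner lists, marker lists and tests were chosen with earlier results of these data known. Depth sets counting error only: members had 53 to 29517 counts per library.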

Additional observations from a re-analysis of the deposited data

Results flagged for a closer look

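For 3 of the 10 genes the change with nanoparticles differed between the genotype labels by the interaction test, beside 8.68% of all genes. The log2 difference, the change in KO+ZnO NPs against KO minus that in WT+ZnO NPs against WT, was 2.009 for Sod3 (SE 0.37), which was lower in 3 of 3 libraries of both groups given nanoparticles than in any of their vehicle libraries. It was 1.029 for Gpx1 (SE 0.27), lower in 3 of 3 WT+ZnO NPs libraries than in any WT library and overlapping between KO+ZnO NPs and KO, and was called in 8 of 19 alternatives. It was 0.945 for Sod1 (SE 0.26), lower in 3 of 3 WT+ZnO NPs libraries than in WT and higher in 3 of 3 KO+ZnO NPs libraries than in KO, and was called in 7 of 19 alternatives.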

How the results depend on the processing

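Over the 10 genes, 5 contrasts and all alternatives, 1010 values were recomputed: 900 kept their direction and their side of the threshold, 63 lost and 23 gained the call, and 24 changed sign. The sign changes fell on 10 small differences that were called neither in the reported fit nor in the alternative (lowest adjusted p 0.485). The log2 value of Gpx8 in KO against WT became 0 to 3 decimals, on the negative side, with RLE factors and -0.001 with DESeq2, and Gpx8 in KO+ZnO NPs against KO became -0.019 with library-size scaling and -0.002 without a low-count filter. Gpx4 in WT+ZnO NPs against WT became 0.038 with library-size scaling and 0.005 with the Y-linked term. Leaving out each library moved Gpx8 from -0.211 to 0.164 in KO against WT and Gpx4 from -0.233 to 0.035 in WT+ZnO NPs against WT. In KO+ZnO NPs against KO it moved Sod2 from -0.013 to 0.148, Cat from -0.102 to 0.623, Gpx2 from -0.735 to 0.61, Gpx7 from -0.305 to 0.168 and Gpx8 from -0.083 to 0.266, and in KO+ZnO NPs against WT+ZnO NPs it moved Sod2 from -0.149 to 0.088, Gpx2 from -0.627 to 0.809 and Gpx3 from -0.439 to 0.083. The cause was not tested for any change below, beyond the fewer samples or genes that an alternative has by construction. DESeq2 called 4 members and 3082 genes in KO against WT, 4372 genes in KO+ZnO NPs against KO, 2 members and 2421 genes in KO+ZnO NPs against WT+ZnO NPs, and 3205 genes in the interaction. edgeR on only the groups compared called 4 members and 2794 genes in KO against WT, 0 members (3 were at an unadjusted p under 0.05 in the fit of all 12 libraries, beside 6140 of 18822 genes) and 571 genes in KO+ZnO NPs against KO, and 0 genes in KO+ZnO NPs against WT+ZnO NPs, where the fit of all 12 libraries has 618 genes called and 4667 at an unadjusted p under 0.05. The Y-linked term left 957 genes in KO against WT, 2 members and 3910 genes in WT+ZnO NPs against WT, 1 gene in KO+ZnO NPs against WT+ZnO NPs, and 1 member and 126 genes in the interaction. Only libraries holding Xist gave 694 genes in KO against WT. Without a low-count filter 284 genes were called in KO+ZnO NPs against WT+ZnO NPs, and 1 member and 1086 genes in the interaction. Leaving out each of the 12 libraries gave 0 to 4 members and 377 to 2060 genes in KO against WT, 2 to 8 members and 5942 to 9095 genes in WT+ZnO NPs against WT, 0 to 3 members and 451 to 3195 genes in KO+ZnO NPs against KO, 0 members and 1 to 1609 genes in KO+ZnO NPs against WT+ZnO NPs (lowest without WT+ZnO NPs replicate 3, highest without KO+ZnO NPs replicate 3), and 1 to 3 members and 461 to 1646 genes in the interaction; where a group was left with 2 libraries, the spread was that shared by all groups. Whether the replicate numbers shared between groups pair the libraries was not settled. Over 18 same-number pairs the correlation of deviations from group means ran from -0.343 to 0.429, and 4 exceeded 0.1. The highest was between replicate 1 of KO and of KO+ZnO NPs, which both hold Y-linked transcripts. Of 12 libraries, 6 correlated best with their own number. Deviations within a group of 3 depend on each other, so this check cannot exclude pairing. With a replicate block 2 members were called in KO against WT, where Sod1 passed (edgeR adjusted p = 0.0492), and 6 in WT+ZnO NPs against WT, where Gpx2 did not (edgeR adjusted p = 0.0682). The block changed no other call of a member. Depth limits Gpx2 in WT, at 53 to 150 counts, and Ggt1 in WT, at 1 to 6 counts.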

Other observations

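Further partner genes differed between the genotype labels in their change with nanoparticles. The interaction was called positive for 9 of the 91 partners tested and negative for 2, against 8.68% of all genes called in either direction. The positive calls were Prdx3, Prdx4, Txnip and Sesn1 among peroxiredoxins and thioredoxins, Ncf1, Xdh and Maoa among sources of superoxide and peroxide, and Pex2 and Pex13 of peroxisome assembly. The negative calls were Slc7a11 and Ggt1 of glutathione supply. These genes were named after their values were seen, and their calls were not recomputed under the alternatives. Over all genes the interaction was called for 1633 in the reported fit and for 126 with the Y-linked term. Leaving out each library gave 461 to 1646.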
